A study of Mus musculus with 6 samples.

Results

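CXC chemokines are small secreted proteins, named for the arrangement of their first cysteines, that bind to receptors on leukocytes and steer their movement. The 10 genes described here, Cxcl1, Cxcl2, Cxcl3, Cxcl5, Cxcl9, Cxcl10, Cxcl12, Cxcl13, Cxcl14 and Cxcl16, were taken by symbol from a count table of 24348 genes, and all 10 were in the table and passed the filter for testing (at least 10 counts in at least 3 libraries). The table came from bulk RNA-seq of flow-sorted synovial fibroblasts, taken from the tissue that lines the joint, of mice of genotype C57BL/6. In one group of 3 libraries, mice had received circulating immune complexes (IC), which the study's methods describe as ovalbumin bound by rabbit antibody to ovalbumin and given through the tail vein. In the other group of 3, they had received vehicle. The labels name no altered allele in either group. The methods describe the animals as adults of both sexes, without saying which gave which library. The time between injection and collection of the fibroblasts and the sort gate were not given in the sources used here. The labels do not say whether each library came from its own mouse, so p-values measure only the spread between these libraries, which may in part be technical.

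Synovial fibroblasts line the joint cavity and fill the layer beneath it, and in inflamed joints they are a source of chemokines. Among the CXC ligands, those with a glutamate-leucine-arginine motif before the first cysteine (CXCL1, CXCL2, CXCL3 and CXCL5) attract neutrophils through CXCR2. CXCL9 and CXCL10 are induced by interferons and attract activated T cells through CXCR3. CXCL12 keeps CXCR4-bearing cells in place, CXCL13 draws B cells through CXCR5, CXCL14 is made constitutively in many epithelia and stroma, and CXCL16 is a membrane-bound ligand of CXCR6 that can be shed. The question of the comparison was whether synovial fibroblasts, which the study treated as secondary responders, changed their transcripts after systemic IC challenge.

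Cxcl1 and Cxcl13 rose after IC by the DESeq2 test. Their increases were 1.36-fold (95% interval 1.19 to 1.56) and 1.68-fold (1.24 to 2.27), with 3 libraries in each group. The other 8 genes did not pass an adjusted p of 0.05. By edgeR's quasi-likelihood test none of the 10 passed. Of all 19925 genes tested, 2.1% were called by DESeq2 in either direction and 1.03% as higher after IC, against 2 of the 10 chemokine genes, both higher. edgeR called 0.186% of all genes. At an unadjusted p under 0.05, the same 6 chemokine genes passed by DESeq2 and by edgeR (Cxcl1, Cxcl2, Cxcl5, Cxcl12, Cxcl13 and Cxcl16), where 9.8% and 9.64% of all genes did so. limma-voom called none of the 10 after adjustment and gave 5 at an unadjusted p under 0.05. The median log2 fold change of the 10 genes was 0.288, against -0.00187 for all genes tested.

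Total counts per library ran from 40114331 to 56714304. The defining fibroblast markers were abundant in every library, with a summed level of 32478 to 33515 CPM (counts scaled to a common library total) after IC and 31648 to 38195 CPM after vehicle over all 8 of 8 markers. Neutrophil markers summed to 0.184 to 0.501 CPM after IC and 0.15 to 0.326 CPM after vehicle, from the 3 of 8 in the table. Of these, S100a8 had 6, 12 and 6 counts after IC and 0 in every vehicle library, all very low. Camp was at 0 in IC replicate 1 and vehicle replicate 2. Macrophage markers (7 of 10 in the table) summed to 32.2 to 50.6 CPM and 39.6 to 51.6 CPM, mainly Cd68 and Lyve1, with C1qb at 0 to 0.074 CPM. Endothelial markers summed to 137 to 190 CPM after IC and 184 to 242 CPM after vehicle, mural markers to 490 to 589 and 571 to 622 CPM, and skeletal muscle markers to 13.7 to 27.6 and 24.2 to 55.1 CPM, each over the whole list. Platelet and erythroid markers (6 of 8 in the table) summed to 31.3 to 37.7 and 32.8 to 35.7 CPM. That sum was mainly Itga2b (28.7 to 34.7 CPM), with Hba-a1 at 0 to 0.0925 CPM and Hbb-bs at 0 to 0.633 CPM. Lymphocyte markers, of which Cd79a alone was in the table, summed to 1.2 to 2.55 and 2.17 to 2.93 CPM. In all 8 lists the sums of the groups overlapped, but single markers stood apart in either direction. Prg4, a fibroblast marker, was at 361, 465 and 473 CPM after IC and 178, 281 and 213 CPM after vehicle. Lum and Pdgfra of the same list were lower after IC without overlap. Lum was at 895, 794 and 956 CPM after IC and 1103, 1134 and 1148 CPM after vehicle. Pdgfra was at 980, 910 and 961 CPM after IC and 1003, 1101 and 1056 CPM after vehicle. The other fibroblast markers overlapped between groups. Of the endothelial list, Kdr was lower after IC (34, 26.6 and 26.1 against 52.1, 40.6 and 48 CPM). Cdh5 (16.8, 16.7 and 7.63 against 26.8, 20.2 and 21.4 CPM) was also lower without overlap. So was Cldn5 (17.5, 20.6 and 11.1 against 23.6, 23.1 and 28.2 CPM). Ackr1 alone of the same list was higher without overlap (36.1, 38 and 45.6 against 35.7, 29 and 29.7 CPM). Notch3 and Myh11 of the mural list and Actn3 of the skeletal muscle list were lower without overlap. No marker of those lists was higher without overlap. The part of other cells in the chemokine values was not tested, and in bulk samples fewer cells of a type and less RNA per cell cannot be told apart.

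Several of the 10 genes lie side by side. On GRCm38, in the GENCODE annotation used for positions, Cxcl5 (chr5:90759360-90761624), Cxcl3 (chr5:90786103-90789600), Cxcl1 (chr5:90891241-90893115) and Cxcl2 (chr5:90903871-90905938) are all on the plus strand within 146579 bases. Cxcl9 (chr5:92321347-92328079) and Cxcl10 (chr5:92346638-92348889) are on the minus strand within 27543 bases, and Cxcl13 (chr5:95956951-95961068) follows on the plus strand. Cxcl12 (chr6:117168535-117181367, plus), Cxcl14 (chr13:56288643-56296551, minus) and Cxcl16 (chr11:70453983-70459984, minus) stand alone on other chromosomes.

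RefSeq promoter windows (GRCm38.p6), from 250 bases before to 50 bases after each gene's start, were found for 8 of the 10 genes, Cxcl5 and Cxcl16 having no entry. They were searched on both strands for the NF-kB motif GGGNNNTTCC, because NF-kB is the factor best known for driving the neutrophil-attracting ligands. The part before the start is shown 5′ to 3′ on the gene's own strand for the 4 genes with a match and for Cxcl13, the called gene without one. Capitals mark bases covered by a match, and overlapping matches on both strands run together.

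Cxcl1 (chr5:90890995-90891244, plus): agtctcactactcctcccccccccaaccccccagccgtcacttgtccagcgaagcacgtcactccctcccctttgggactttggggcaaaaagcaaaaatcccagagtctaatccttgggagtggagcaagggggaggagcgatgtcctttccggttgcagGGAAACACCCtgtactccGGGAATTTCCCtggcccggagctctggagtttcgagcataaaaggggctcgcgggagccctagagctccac
Cxcl2 (chr5:90903649-90903898, plus): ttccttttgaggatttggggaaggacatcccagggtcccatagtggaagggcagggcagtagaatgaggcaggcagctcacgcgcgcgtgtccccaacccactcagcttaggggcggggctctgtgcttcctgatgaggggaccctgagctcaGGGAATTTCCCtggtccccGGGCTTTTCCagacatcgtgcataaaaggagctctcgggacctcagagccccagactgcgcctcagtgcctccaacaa
Cxcl3 (chr5:90785851-90786100, plus): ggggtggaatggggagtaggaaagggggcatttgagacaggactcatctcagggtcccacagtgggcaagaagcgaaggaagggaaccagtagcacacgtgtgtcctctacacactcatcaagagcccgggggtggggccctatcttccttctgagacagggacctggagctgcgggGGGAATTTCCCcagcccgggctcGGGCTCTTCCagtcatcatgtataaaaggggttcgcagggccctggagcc
Cxcl10 (chr5:92348890-92349139, minus): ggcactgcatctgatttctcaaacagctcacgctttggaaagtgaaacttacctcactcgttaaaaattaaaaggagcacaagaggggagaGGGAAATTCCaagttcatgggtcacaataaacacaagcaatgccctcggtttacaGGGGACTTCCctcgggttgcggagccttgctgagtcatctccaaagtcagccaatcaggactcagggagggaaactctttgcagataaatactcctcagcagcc
Cxcl13 (chr5:95956689-95956938, plus): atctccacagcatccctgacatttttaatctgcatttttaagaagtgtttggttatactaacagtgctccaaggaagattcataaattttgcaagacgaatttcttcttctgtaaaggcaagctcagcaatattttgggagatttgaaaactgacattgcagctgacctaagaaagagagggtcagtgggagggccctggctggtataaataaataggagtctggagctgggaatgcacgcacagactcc

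The motif was present in 4 of the 8 windows and in 5.56% of the 32851 mouse promoters in the table. The fixed-letter form GGGAATTTCC stood 71 bases before the start of Cxcl1, 97 before that of Cxcl2 and 73 before that of Cxcl3, counted to its first base, and occurred in 29 promoters in all, 0.0883% of them. Its letters were chosen with these promoters at hand, so that share is not a test of the matches. Cxcl1, Cxcl2 and Cxcl3 each held a further match nearby, at -89 on the minus strand, -78 and -50. Cxcl10 held GGGAAATTCC at -159 and GGGGACTTCC at -104. The interferon-type motif TTTCNNTTTC matched in Cxcl10 (at -213) and Cxcl14 (at -172), against 3.44% of all promoters, and the STAT-type motif TTCNNNGAA in Cxcl14 alone (at -191), against 8.3%. These matches describe letters in the window. Cxcl2 and Cxcl3, which also hold the fixed-letter form, did not pass the test.

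Levels can be compared between genes per length only. CPM divided by the length of merged exons in kilobases (RPKM) gave Cxcl1 first in vehicle, at 295.9 ± 11.6 (SD, n = 3), which is higher than 99.7% of the 19602 tested genes with a length. Cxcl14 followed at 160.5 ± 16.2 RPKM (percentile 99.2), then Cxcl12 at 57.55 ± 7.05 (percentile 97.5) and Cxcl10 at 20.89 ± 3.77 (percentile 91.5). In the 6 libraries, each of these stood apart from the next. Cxcl9, at 8.288 ± 2.06 RPKM, overlapped Cxcl13, at 5.649 ± 1.24, and Cxcl13 overlapped Cxcl16, at 5.291 ± 0.508, so the order of these neighbours is not resolved beyond their spread. Cxcl2 (0.9271 ± 0.421 RPKM), Cxcl5 (0.5194 ± 0.167 RPKM) and Cxcl3 (0.07167 ± 0.101 RPKM) were lowest in vehicle. Over the 6 libraries, the range of Cxcl5 overlapped those of both of the others. In IC replicate 3, Cxcl5 reached 11.89 RPKM, above Cxcl9 (8.653), Cxcl13 (8.853) and Cxcl16 (4.05) in that library. Of the summed RPKM of the 10 genes, Cxcl1 made up 53.3% in vehicle and 59.8% after IC. The vehicle level of Cxcl1 became 582.2 RPKM with the longest transcript tagged basic in the annotation, since one longer Cxcl1 transcript sets the merged length, and Cxcl13 and Cxcl16 then changed places in the order.

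**Figure D1:**
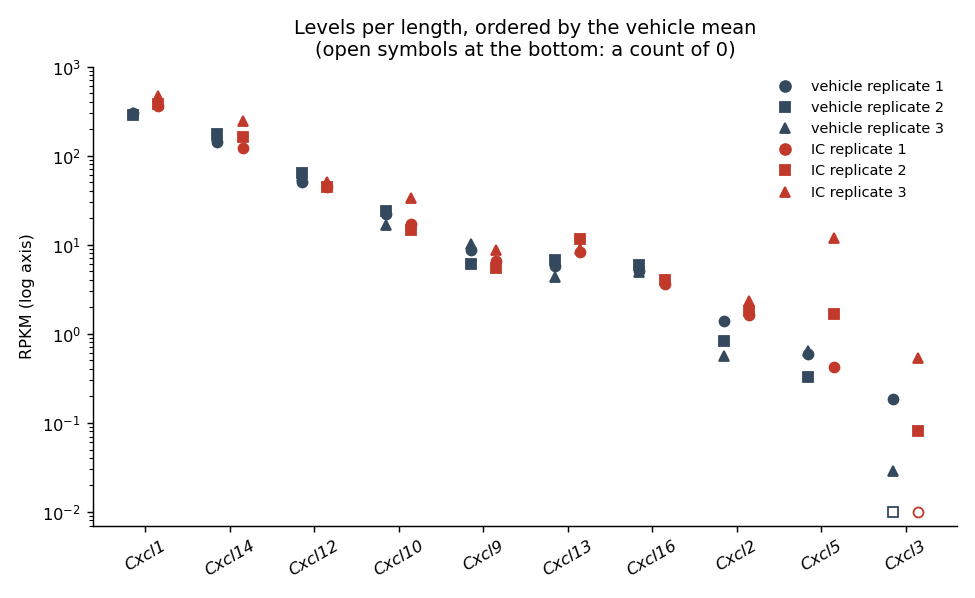
Level per length (RPKM, log axis) of the 10 CXC chemokine genes in each library, ordered by the vehicle mean, with vehicle in grey, IC in red and the replicate given by the symbol. The plot spans from Cxcl1 at 282.8 RPKM or more in every library to Cxcl3, which had a count of 0 in 2 libraries, drawn as open symbols at the bottom.

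Among the neutrophil-attracting ligands, Cxcl1 was the most abundant per length and varied least among the vehicle libraries. It had 32893, 33560 and 42865 normalized counts (counts divided by DESeq2 size factors) in the 3 IC libraries and 26581, 26133 and 27442 in the 3 vehicle libraries. All IC libraries were above all vehicle libraries, and the vehicle libraries differed from each other by at most 1.05 times while IC replicate 3 was 1.28 times the next IC library. The log2 fold change was 0.45 ± 0.098 (SE). DESeq2 gave an adjusted p of 0.000664 and edgeR one of 0.107. With any one library left out, it ran from 0.32 to 0.52 and DESeq2 called it in 6 of 6 fits (adjusted p 0.000645 to 0.0206).

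Cxcl2, a close relative of Cxcl1 with the same receptor, had 160.9, 177.8 and 231.2 normalized counts after IC and 133.7, 84.07 and 57.15 after vehicle. The groups did not overlap, and the vehicle libraries varied among themselves by 2.34 times. The estimate was larger than that of Cxcl1, at 1.04 ± 0.36 on the log2 scale (DESeq2 adjusted p 0.101, edgeR 0.294). Without vehicle replicate 1, the highest vehicle library, the value was 1.42 (adjusted p 0.00657), and the other 5 fits that left out a library did not call it. Cxcl2 and Cxcl3 share 83 windows of 75 bases in their transcripts (4.17% of those of Cxcl2 and 2.42% of those of Cxcl3), so a small part of their reads could be split between them.

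Cxcl3, also a CXCR2 ligand, was barely detected. The raw counts were 0, 13 and 100 after IC and 37, 0 and 4 after vehicle, and a count of 0 allows up to 3 counts. High and low libraries were found in both groups, which overlapped. The log2 fold change of 1.55 ± 2.58 received no adjusted p from DESeq2 and one of 0.840 from edgeR. The estimate without IC replicate 3 was -0.81.

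Cxcl5, a CXCR2 ligand best known from epithelial and stromal cells, was high in a single library. It had 37.47, 145.7 and 1073 normalized counts after IC and 50.84, 30.23 and 58.36 after vehicle. IC replicate 3 was 7.36 times the next IC library, whereas IC replicate 1 lay within the vehicle range, so the groups overlapped. A log2 fold change of 3.17 ± 1.22 was estimated (DESeq2 adjusted p 0.182, edgeR 0.238). It was 0.98 (adjusted p 0.706, with IC replicate 2 then the highest library) without IC replicate 3 and 3.71 (adjusted p 0.0141, the only such fit to call it) without IC replicate 1.

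**Figure D2:**
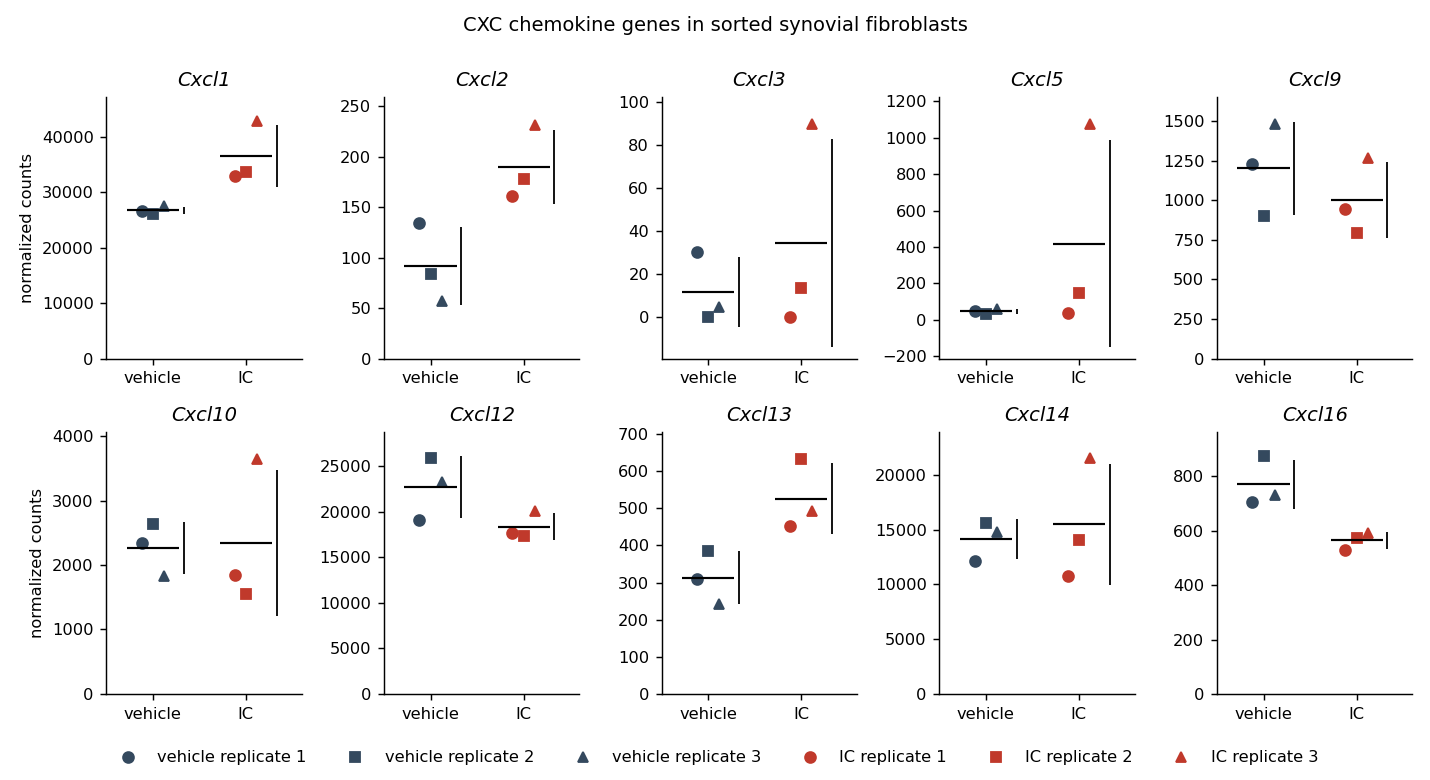
Normalized counts of each CXC chemokine gene in the 3 vehicle and 3 IC libraries, on axes that differ by gene, with horizontal lines at the group means and vertical lines for the mean ± 1 SD. Cxcl1, Cxcl2 and Cxcl13 show IC libraries above all vehicle libraries, Cxcl16 shows them below, and the Cxcl5 mean after IC is set by IC replicate 3 at 1073.

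The interferon-induced pair did not pass the test in either direction. Cxcl9 had 945.5, 790.7 and 1264 normalized counts after IC and 1228, 897.4 and 1481 after vehicle. The ranges overlapped widely, and the log2 fold change was -0.26 ± 0.194 (adjusted p 0.710 by DESeq2, 0.769 by edgeR). Cxcl10 had 1850, 1545 and 3640 after IC and 2344, 2628 and 1823 after vehicle. IC replicate 3 was the highest of all 6 libraries for Cxcl10 and IC replicate 2 the lowest. Its log2 fold change was 0.05 ± 0.39 (adjusted p 0.991 by DESeq2, 0.982 by edgeR), with a 95% interval of -0.71 to 0.81, and -0.42 (adjusted p 0.252) without IC replicate 3. Cxcl10 lies inside Art3, which is on the opposite strand and had 194 to 402 counts. The setting used for strand in counting was not stated, and 2.74% of the 75-base windows of Cxcl10 are shared with Art3.

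Cxcl12, the ligand of CXCR4 which stromal cells make in quantity, had 17666, 17300 and 20034 normalized counts after IC and 19056, 25846 and 23280 after vehicle. The IC libraries were lower apart from an overlap between IC replicate 3 and vehicle replicate 1. On the log2 scale the difference was -0.31 ± 0.105 (DESeq2 adjusted p 0.0929, edgeR 0.344). Without vehicle replicate 1 it was -0.42 (adjusted p 0.000273), and none of the other 5 such fits called it.

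Cxcl13, which recruits B cells and marks ectopic lymphoid tissue, had 451.8, 633.6 and 492.9 normalized counts after IC and 310.8, 385.4 and 243.2 after vehicle. Every IC library was above every vehicle library, and in contrast to the other 9 genes the highest IC library was replicate 2. The rise was 0.75 ± 0.221 on the log2 scale (DESeq2 adjusted p 0.0352, edgeR 0.199). The call was less stable than that of Cxcl1: with one library left out the value ran from 0.59 to 0.92, and only the fit without vehicle replicate 2 called it (adjusted p 0.0085, against 0.0555 to 0.358 in the other 5).

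Cxcl14, abundant in the stroma, had 10796, 14091 and 21558 normalized counts after IC and 12097, 15620 and 14748 after vehicle. The IC libraries included both the highest and the lowest value. Its estimated change was 0.13 ± 0.298 on the log2 scale (adjusted p 0.957 by DESeq2, 0.915 by edgeR) and -0.18 without IC replicate 3.

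Cxcl16, the membrane-bound ligand, was the one gene whose IC libraries all lay below the vehicle libraries, with 530, 572.6 and 592.3 normalized counts against 707.6, 874.7 and 730.8. A log2 fold change of -0.45 ± 0.156 did not pass the adjusted threshold (0.108 by DESeq2, 0.242 by edgeR), nor did it with any one library left out (0.0651 to 0.41). Of its 75-base windows, 18.2% are shared with Zmynd15 on the opposite strand, which was at -0.12 on the log2 scale (adjusted p 0.933).

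In counts of groups that did not overlap, 3 of the 10 genes were higher after IC (Cxcl1, Cxcl2 and Cxcl13), against 8.09% of all genes, and 1 was lower (Cxcl16), against 7.67%.

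**Figure D3:**
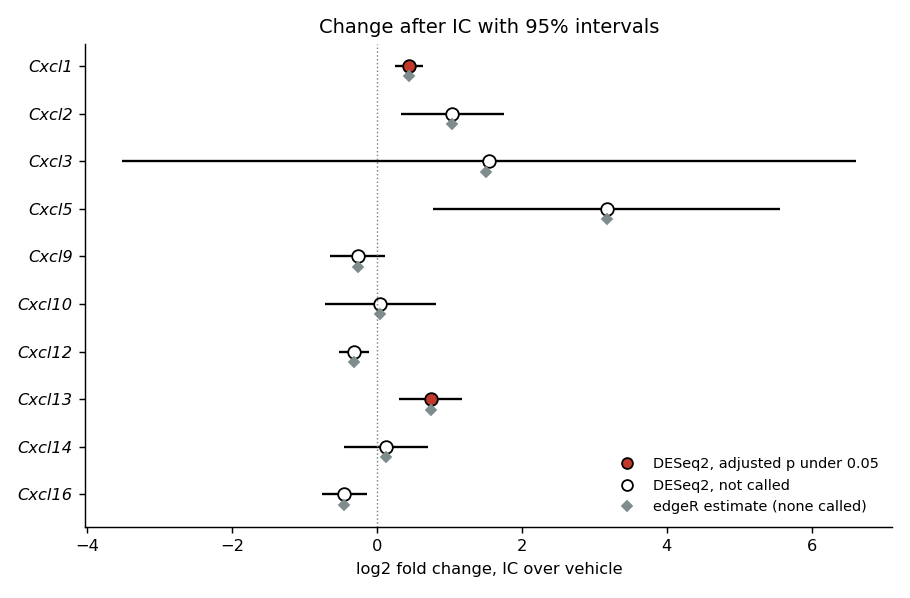
Log2 fold change, IC over vehicle, of each CXC chemokine gene with its 95% interval from DESeq2 (circles, filled where the adjusted p is under 0.05) and the edgeR estimate (diamonds). Cxcl1 and Cxcl13 are filled, the intervals of Cxcl2, Cxcl5, Cxcl12 and Cxcl16 also leave out 0 before adjustment, and that of Cxcl3 spans -3.51 to 6.61.

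IC replicate 3 was the highest of the 3 IC libraries for 9 of the 10 genes and the highest of all 6 libraries for 6 of them, whereas over all tested genes it was the highest IC library for 35.7%. In the same library the summed endothelial (137 CPM), mural (490 CPM) and skeletal muscle (13.7 CPM) markers were the lowest of all 6 libraries. So were the macrophage (32.2 CPM), lymphocyte (1.2 CPM) and platelet and erythroid (31.3 CPM) sums. The fibroblast (33515 CPM) and neutrophil (0.426 CPM) sums were not the lowest. Some single markers of the lower lists, including Ackr1 (45.6 CPM) and Kcnj8 (10.6 CPM), were highest in this library. The part of other cells in the chemokine values of that library was not tested. Without it, Cxcl1 remained called, at a log2 fold change of 0.32 (adjusted p 0.000676), and Cxcl13 was at 0.79 (adjusted p 0.106).

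**Figure D4:**
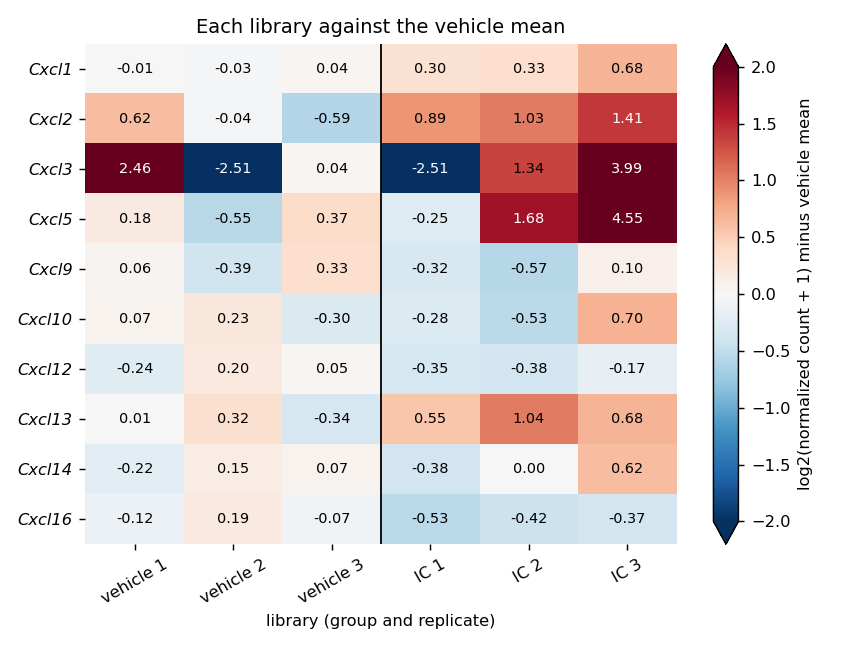
Difference between the log2(normalized count + 1) of each library and the mean of the vehicle libraries, for each CXC chemokine gene, with colours limited to 2 on either side. IC replicate 3 reaches 3.99 for Cxcl3 and 4.55 for Cxcl5, while Cxcl1 in the vehicle libraries stays between -0.03 and 0.04.

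Ratios of counts within a library do not depend on scaling between libraries. Cxcl1 had 1.86 to 2.14 times the counts of Cxcl12 after IC and 1.01 to 1.39 times after vehicle, with no overlap. The ratio of Cxcl13 to Cxcl12 was 0.0246 to 0.0366 after IC and 0.0104 to 0.0163 after vehicle, also without overlap. Both ratios set a gene called as higher over Cxcl12, whose estimate was lower. They restate the values above and are not a further test, and how often other gene pairs separate was not computed. The ratios of Cxcl1 to Cxcl2, Cxcl5 to Cxcl1 and Cxcl10 to Cxcl9 overlapped between groups, at 185 to 204 and 199 to 480, 0.00114 to 0.025 and 0.00116 to 0.00213, and 1.95 to 2.88 and 1.23 to 2.93.

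**Figure D5:**
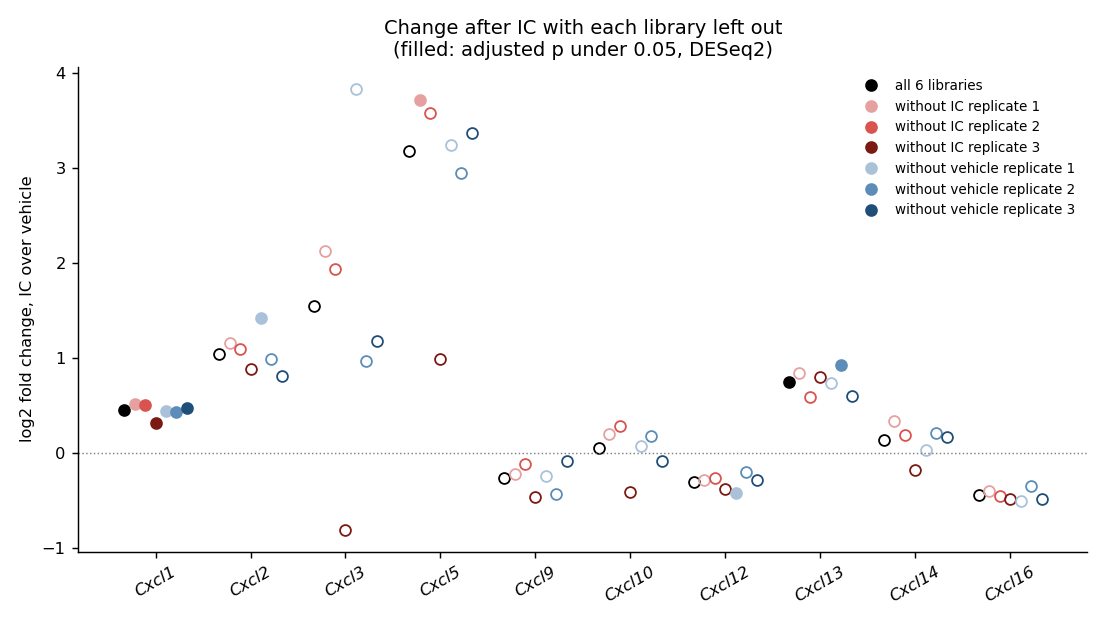
Log2 fold change, IC over vehicle, of each CXC chemokine gene with all 6 libraries (black) and with each library left out in turn (red shades for IC libraries, blue for vehicle libraries), filled where the DESeq2 adjusted p is under 0.05. Cxcl1 is filled in every fit, Cxcl13 in the fit of all libraries and in the one without vehicle replicate 2, and Cxcl3 moves between -0.81 and 3.83.

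The genes whose profile over the 6 libraries was closest to that of Cxcl1, by root mean square difference in log2 normalized counts among 13435 genes with a mean of at least 100, included Gmppb (0.0409) and Pdia6 (0.0574). Those closest to Cxcl13 were 3930402G23Rik (0.137), Nr1d1 (0.157) and Hmox1 (0.167). The difference was thus smaller for the named genes of Cxcl1 than for those of Cxcl13. Within the chromosome stretch of Cxcl5, Cxcl3, Cxcl1 and Cxcl2, 3 other genes were in the table. The platelet chemokine Ppbp had 9, 6 and 0 counts after IC and 2, 0 and 0 after vehicle, and Gm43086 had 0 to 16. Gm22816, annotated as an rRNA gene between Cxcl1 and Cxcl2, had 267, 373 and 496 counts after IC and 291, 199 and 191 after vehicle, and rose by 0.77 on the log2 scale (adjusted p 0.0431 by DESeq2, 0.124 to 0.303 without IC replicate 2 or 3 or vehicle replicate 2 or 3, and not called by edgeR). It lies at chr5:90893380-90893496 on the plus strand, close after the end of Cxcl1 (90893115) on the same strand. Whether its counts are separate from those of Cxcl1 was not tested.

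Of 5 other CXC ligands listed, Ppbp alone was in the table and was not tested. Of 10 CXC and atypical receptors, 5 were in the table and tested, and 1 was called, where 2.1% of all genes were. Cxcr4, the receptor of CXCL12, had 379.1, 120.9 and 166.7 normalized counts after IC and 673.2, 487.4 and 345.3 after vehicle. It fell by 1.18 ± 0.344 on the log2 scale (adjusted p 0.0305 by DESeq2, 0.299 by edgeR), although IC replicate 1 lay within the vehicle range and only the fit without IC replicate 1 called it among the 6 that left out a library (-1.80, adjusted p 9.65e-06, against 0.0675 to 0.709 in the other 5). The scavenger receptors Ackr3, which takes up CXCL12, and Ackr1, which is found on venules and binds many chemokines, had log2 fold changes of -0.12 (adjusted p 0.845) and 0.34 (adjusted p 0.163), the latter without overlap between groups. Beside these, summed endothelial markers, a list that includes Ackr1, were 137 to 190 CPM after IC and 184 to 242 CPM after vehicle, and their part in the Cxcr4 value was not tested.

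NF-kB drives transcription of many of these ligands, and the RNA-binding proteins of the same list set how long their mRNAs last. Of 18 such genes tested, 1 was called and 17 had a positive log2 fold change, with a median of 0.132, and 8 had no overlap between groups, all higher after IC. Over all genes tested, 2.1% were called, 49.6% had a positive value, the median was -0.00187 and 8.09% were higher after IC without overlap. Nfkb2, a subunit of the non-canonical pathway, had 15800, 17391 and 14315 normalized counts after IC and 12944, 12054 and 13289 after vehicle. All IC libraries were above the vehicle libraries, and the gene rose by 0.31 ± 0.087 on the log2 scale (adjusted p 0.0208 by DESeq2, 0.215 by edgeR), a call kept without IC replicate 3 or vehicle replicate 1 and lost without any other library (0.0749 to 0.221). The most abundant per length, Zfp36, which promotes decay of chemokine mRNAs, and Nfkbia, the NF-kB inhibitor, were each at 0.13 (adjusted p 0.533 and 0.582).

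Of 16 cytokine receptors and adaptors, which receive the signals that induce CXC ligands, none was called by DESeq2, edgeR or limma-voom, and 4 had an unadjusted p under 0.05 by DESeq2, against 2.1% and 9.8% of all genes by DESeq2. Osmr, the oncostatin M receptor, was called without vehicle replicate 1 (0.27, adjusted p 0.0282) and Il17rc, a chain of the IL-17 receptor, without vehicle replicate 2 (0.48, adjusted p 0.0125). Il6st, the shared gp130 chain, and Tnfrsf1a, a TNF receptor, had the highest levels per length, and their log2 fold changes were -0.04 (adjusted p 0.937) and 0.20 (adjusted p 0.289).

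Interferon signalling acts on Cxcl9 and Cxcl10. Stat2, a subunit of the interferon-activated complex ISGF3, had 7418, 6651 and 9854 normalized counts after IC and 5695, 5064 and 5784 after vehicle. The groups did not overlap, and IC replicate 3 was again the highest. Stat2 rose by 0.53 ± 0.124 (adjusted p 0.00197 by DESeq2, 0.137 by edgeR) and was called in 5 of 6 fits with a library left out, the exception being that without vehicle replicate 2 (0.0658). Without IC replicate 3 its log2 fold change was 0.35 (adjusted p 0.0286). The transcription factor gene Irf1 and the kinase gene Jak1 had log2 fold changes of 0.11 (adjusted p 0.590) and 0.06 (adjusted p 0.876).

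Of 12 genes tested for the processing and display of ligands, 1 was called and 9 had a negative log2 fold change, with a median of -0.0712, against 2.1% called, 49.6% positive and a median of -0.00187 over all genes. Adam10, the protease that sheds CXCL16 from the membrane, had 3658, 3497 and 3776 normalized counts after IC and 4387, 4380 and 4611 after vehicle. It fell by 0.29 ± 0.084 on the log2 scale without overlap (adjusted p 0.0266 by DESeq2, 0.147 by edgeR), a call lost when IC replicate 1 or 2 or vehicle replicate 3 was left out (0.0809 to 0.148), beside the lower Cxcl16 values given above. Mmp2 and Mmp14, proteases that can cleave CXCL12 and the most abundant of the list, were at -0.09 (adjusted p 0.786) and -0.05 (adjusted p 0.911).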

How the data were processed

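The 6 bulk RNA-seq libraries were read from the deposited table of gene counts, whole numbers of reads per gene made by the authors with Trim Galore, FastQC, HISAT2 on mm10 and featureCounts (versions not given in the sources used here). The labels name an Illumina stranded total RNA kit and the study's methods a SMARTer stranded Pico kit. The 6 single-library files matched the table. The methods mention removal of batch effects with sva, at a step not stated, and the counts are raw.

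IC was compared with vehicle over the 19925 genes that reached 10 counts in 3 or more libraries, by the Wald test of DESeq2 1.42.0 with default settings and Benjamini-Hochberg adjustment, tested on simulated data. A gene was called at an adjusted p under 0.05, and 3870 tested genes received no adjusted p. Alternatives were edgeR 4.0.16, limma-voom (3.58.1), a term from sva 3.50.0, other scalings and filters, and each library left out. Counts between libraries of a group differed by more than sampling noise, and depth allowed at least 40114331 counts per library. Intervals and limits for a count of 0 cover counting error or the fitted spread only.

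Genes named are the 10 chemokines, called and most abundant members of fixed lists, the 3 profiles closest to each called chemokine, and annotated neighbours. Some results under this rule are not reported here. Zmynd15 was added after its overlap with Cxcl16 was seen. Members and lists were chosen with earlier results of these data known. Positions and lengths came from GENCODE M21, promoters from RefSeq. Same-numbered replicates did not deviate together.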

Additional observations from a re-analysis of the deposited data

How the results depend on the processing

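The 419 genes called by DESeq2 became 37 with edgeR and 62 with limma-voom, and ran from 282 to 671 with one library left out, the highest being the fit without vehicle replicate 1. Of the 10 chemokine genes, 2 were called by DESeq2, 0 by edgeR and 0 by limma-voom, and 1 to 3 with one library left out. Cxcl1 alone was called without IC replicate 2 or 3 and without vehicle replicate 3. The cause of these differences was not tested. Other scalings, filters on counts, independent filtering, the Cook's cutoff and 1 surrogate variable kept both Cxcl1 and Cxcl13 called.

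The replicate numbers shared by the groups gave no sign of pairing: the deviations of same-numbered libraries from their group means correlated at -0.0918, -0.164 and 0.025. With 3 libraries in each group, such correlations cannot exclude a batch shared by same-numbered libraries. With the replicate block, 320 genes and 2 chemokine genes were called, and Nfkb2, Adam10 and Gm22816 were not.

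The log2 fold change of Cxcl10 changed sign with limma-voom (-0.0304) and the replicate block (-0.0455), and ran from -0.42 to 0.28 with one library left out. Those of Cxcl3 and Cxcl14 ran from -0.81 to 3.83 and from -0.18 to 0.33, negative without IC replicate 3. None of these genes was called in any of these fits. Cxcr4, Nfkb2 and Gm22816 lost their calls with 1 surrogate variable (adjusted p 0.599, 0.105 and 0.167), Gm22816 also with independent filtering off (0.0519). The ISRE and GAS motifs in fixed-letter form matched 1 and 0 chemokine genes. As for the NF-kB motif, their letters were chosen after the promoters were at hand.

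With 3 libraries in each group and counts from 0 to 100, the data set no useful limit on a change of Cxcl3, whose 95% interval spans -3.51 to 6.61 on the log2 scale.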
